A study of Mus musculus with 9 samples.

Results

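The genes described here encode the proteasome, its activators and its assembly factors, measured by mRNA sequencing of induced regulatory T cells (iTreg) from C57BL/6J mice. They were chosen by symbol, as protein-coding genes that start with Psma, Psmb, Psmc, Psmd, Psme or Psmg and a digit, which gave 49 of the 28111 genes counted and of the 17771 protein-coding genes among them. The 4 Glut1Tg libraries came from mice with a transgene for the glucose transporter Glut1, and the 5 WT libraries came from wild-type mice. Glut1Tg replicate 1 and WT replicates 2, 4 and 5 carried the label mouse group 2, and Glut1Tg replicates 2, 3 and 4 and WT replicates 1 and 3 carried the label mouse group 1. The sources used here do not say what the mouse groups stand for, how old the mice were, which promoter drove the transgene or how the cells were induced. Nor do they say whether each library had its own animal or culture. The p-values therefore refer to the spread among these libraries alone, and that spread may be technical.

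The proteasome is the protease that breaks down proteins tagged with ubiquitin. Its barrel-shaped core is built of alpha rings, which gate the entry, around beta rings, which hold the proteolytic sites. A cap of ATPases and other subunits recognises the ubiquitin tag, unfolds the protein and feeds it into the core. Lymphocytes and cells exposed to interferon gamma exchange the catalytic beta subunits for immunoproteasome versions, whose cuts yield peptides suited to MHC class I. Regulatory T cells are CD4 T cells that express Foxp3 and restrain other immune cells.

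By role, the 49 genes comprised 7 alpha ring genes (Psma1 to Psma7), 4 structural beta genes (Psmb1 to Psmb4), 3 constitutive catalytic genes (Psmb5, Psmb6, Psmb7) and 3 immunoproteasome catalytic genes (Psmb8, Psmb9, Psmb10). The cap was represented by 6 ATPase genes (Psmc1 to Psmc6) and 11 non-ATPase genes (Psmd1, Psmd2, Psmd3, Psmd4, Psmd6, Psmd7, Psmd8, Psmd11, Psmd12, Psmd13 and Psmd14). Alternative activators came from 5 genes (Psme1, Psme2, Psme2b, Psme3, Psme4), core assembly factors from 4 (Psmg1 to Psmg4) and cap assembly factors from 3 (Psmd5, Psmd9, Psmd10). Psma8 and Psmb11 encode core subunits restricted to the germ line and the thymus. Psmc3ip meets the symbol rule but encodes a factor of meiotic recombination, so it is left out of every sum below. In the test 48 of the 49 genes passed the filter on low counts. Psma8 did not, and its highest level was 1.56 CPM, in Glut1Tg replicate 3.

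Promoter windows from RefSeq (GRCm38.p6) run from 250 bases before to 50 bases after each transcript start, and 41 of the 49 genes had one or more, 44 windows in all. The letters searched on both strands were TGACNNNGC, the core of the antioxidant response element that Nrf1 and Nrf2 bind with small Maf proteins, AANNGAAA, a core of interferon regulatory factor sites, CCAAT, and GGGCGG, the GC box. The antioxidant core was in 13.6% of the members' windows and in 13.0% of all 21262 protein-coding windows. The interferon factor core was in 29.6% against 21.8%, CCAAT in 34.1% against 38.2%, and the GC box in 54.6% against 46.2%. Windows with the antioxidant core belonged to 6 members: Psmb5, Psmb6, Psmc6, Psmd9, Psmd12 and Psme4. Both constitutive catalytic genes with a window had it, and none of the 3 immunoproteasome windows had it or the interferon factor core. In the 250 bases before the start alone, the antioxidant core was in 11.4% of the members' windows against 10.4% of all. The interferon factor core was then in 22.7% against 19.65%, CCAAT in 34.1% against 35.4%, and the GC box in 52.3% against 42.6%. A match describes letters in a window, not a bound site.

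Printed below are the windows of Psmb5 and Psmb6, the constitutive catalytic genes with the antioxidant core, of Psmb9, the immunoproteasome gene that takes the place of Psmb6 and lacks it, and of Psmd9, whose levels differ between mouse groups below. Capitals mark the letters searched for, on either strand. In Psmb5 (chr14:54617946-54618245, minus strand) they mark the antioxidant core at bases -47 to -39 from the start. In Psmb6 (chr11:70525107-70525406, plus strand) they mark a GC box, an interferon factor core and the antioxidant core at -9 to -1. In Psmb9 (chr17:34187281-34187580, minus strand) they mark a GC box and a CCAAT box. In Psmd9 (chr5:123227940-123228239, plus strand) they mark an interferon factor core and then the antioxidant core at -31 to -23 running into a GC box at -26 to -21.
Psmb5: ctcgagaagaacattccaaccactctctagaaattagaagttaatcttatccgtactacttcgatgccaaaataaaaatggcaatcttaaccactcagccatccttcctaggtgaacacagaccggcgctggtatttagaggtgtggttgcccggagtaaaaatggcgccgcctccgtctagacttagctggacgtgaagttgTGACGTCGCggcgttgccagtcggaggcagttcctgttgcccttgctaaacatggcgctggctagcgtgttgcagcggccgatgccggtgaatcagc
Psmb6: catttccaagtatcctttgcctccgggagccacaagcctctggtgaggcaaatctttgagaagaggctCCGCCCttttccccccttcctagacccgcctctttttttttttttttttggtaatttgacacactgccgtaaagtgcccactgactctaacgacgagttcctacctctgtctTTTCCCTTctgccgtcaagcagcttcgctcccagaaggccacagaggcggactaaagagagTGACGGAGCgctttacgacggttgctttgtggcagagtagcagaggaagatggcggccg
Psmb9: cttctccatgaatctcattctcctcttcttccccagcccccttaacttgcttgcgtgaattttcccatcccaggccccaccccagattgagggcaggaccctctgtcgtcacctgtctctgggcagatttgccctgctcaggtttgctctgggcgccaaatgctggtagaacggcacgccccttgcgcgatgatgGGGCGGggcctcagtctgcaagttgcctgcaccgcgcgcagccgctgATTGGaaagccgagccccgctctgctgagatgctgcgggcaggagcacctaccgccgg
Psmd9: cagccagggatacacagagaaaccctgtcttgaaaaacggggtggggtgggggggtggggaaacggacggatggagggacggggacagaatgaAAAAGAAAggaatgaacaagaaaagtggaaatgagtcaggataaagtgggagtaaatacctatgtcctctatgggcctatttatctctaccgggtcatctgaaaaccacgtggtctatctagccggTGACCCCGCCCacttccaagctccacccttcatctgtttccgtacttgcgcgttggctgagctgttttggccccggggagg

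Levels are given as CPM, counts per library total after TMM scaling. The 49 genes together took 108037 to 208839 counts per library, which is 0.517% to 0.774% of library totals of 20881035 to 31196428. Slc2a1, which encodes Glut1, was 8.87-fold higher in Glut1Tg by mean CPM with no overlap between genotypes (log2 fold change 2.92 ± 0.19, SE). All 8 listed T cell markers and all 6 listed regulatory T cell markers were detected. The regulatory T cell markers summed to 1927 to 5029 CPM in Glut1Tg and to 2401 to 4717 CPM in WT. Il2ra, from 241 to 2959 CPM, had the widest range in that sum. Mean CPM in Glut1Tg and WT was 747 and 977 for Foxp3, 134 and 203 for Ikzf2, and 321 and 341 for Ikzf4. It was 483 and 485 for Ctla4, 980 and 837 for Il2ra, and 262 and 238 for Tnfrsf18. Some libraries stood apart. Glut1Tg replicate 1 and WT replicate 2 had 4940 and 4830 CPM summed over 7 proliferation genes, against 898 to 2101 CPM in the other libraries. Glut1Tg replicate 3 had 2604 CPM summed over 10 mast cell and basophil genes, 430.3 CPM over 10 macrophage and neutrophil genes and 1049 CPM over 7 erythroid and platelet genes, against at most 858, 36.1 and 279.6 CPM elsewhere. All genes of these 4 lists were detected. In bulk RNA, fewer cells of a type and less RNA per cell cannot be told apart.

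Proteasome genes moved together from library to library. Summed over the 47 tested genes without Psmc3ip, transcripts stood at 7883, 5371, 7473 and 5446 CPM in Glut1Tg replicates 1 to 4, against 5220.2, 6802, 5085, 5304 and 4884 CPM in WT replicates 1 to 5. The means were 6543 ± 1321 CPM in Glut1Tg and 5459 ± 767 CPM in WT (SD, n = 4 and 5). The 3 high libraries were the ones that stood apart above: Glut1Tg replicates 1 and 3 and WT replicate 2. The part of proliferation and of other cell types in these levels was not tested. Glut1Tg replicates 2 and 4 were close to the other WT libraries, at 5371 and 5446 CPM against 4884 to 5304 CPM.

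Averaged over the 47 genes on the log2 scale and set against the WT mean, the libraries were at 0.50, -0.03, 0.40 and -0.02 in Glut1Tg replicates 1 to 4, against -0.05, 0.30, -0.08, -0.04 and -0.13 in WT replicates 1 to 5. In Glut1Tg replicate 1, 44 of the 47 genes were above their WT mean, in Glut1Tg replicate 3, 43, and in WT replicate 2, 41, whereas in WT replicate 5 only 6 were. Glut1Tg replicate 1 was the highest of all 9 libraries for 27 genes and Glut1Tg replicate 3 for 17, and WT replicate 5 was the lowest for 21. The same libraries were high in nearly every role, as the plot of role means by library shows. Alternative activators departed from it: Glut1Tg replicate 3 lay below the WT mean there, at -0.08, although Psme1, Psme2 and Psme3 were above theirs and Psme2b was far below. Among immunoproteasome catalytic genes WT replicates 4 and 5 were also above the WT mean, at 0.30 and 0.12, and Glut1Tg replicate 2 was at -0.20. In core assembly WT replicate 4 was at 0.17.

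**Figure D1:**
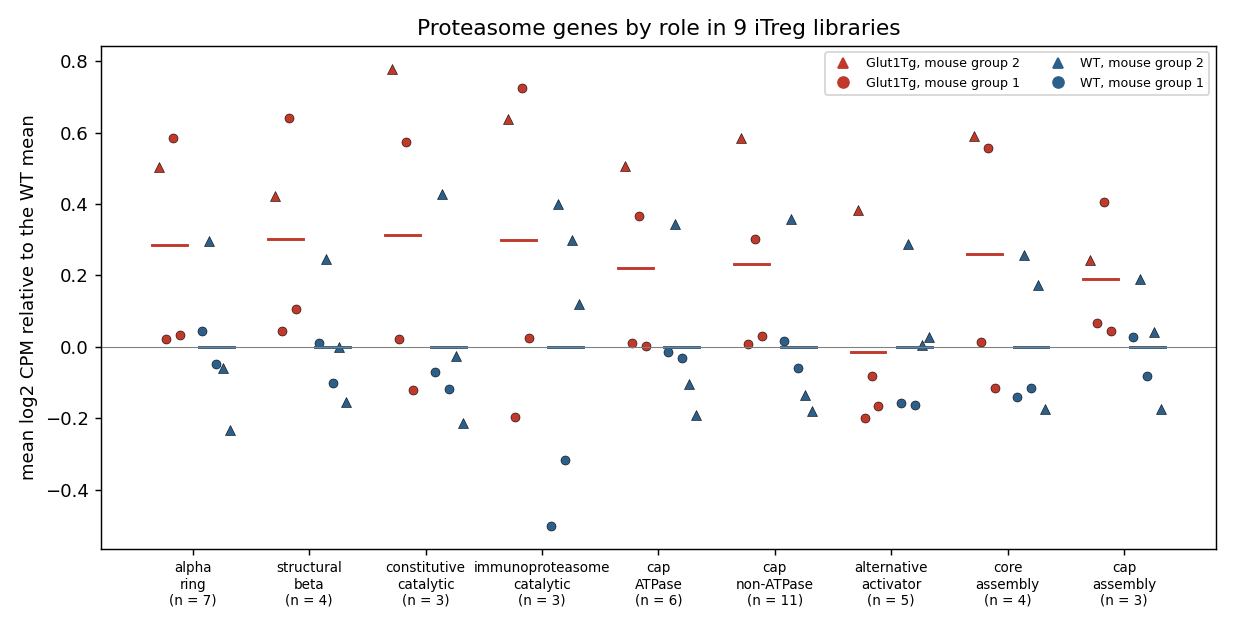
Mean log2 CPM of each role's genes, relative to the WT mean of each gene, in 4 Glut1Tg and 5 WT libraries; points are libraries, triangles mouse group 2, circles mouse group 1, short lines the genotype means, n the genes of a role. Glut1Tg replicates 1 and 3 are high in most roles (means over 47 genes of 0.50 and 0.40). Over the same 47 genes Glut1Tg replicates 2 and 4 are close to the WT mean and WT replicate 2 is the high WT library. Among immunoproteasome catalytic genes WT replicate 4 is also high (0.30) and Glut1Tg replicate 2 is low (-0.20).

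The first comparison asked which of these genes differed between Glut1Tg and WT, with mouse group held as a term. No member passed an adjusted p of 0.05 (edgeR's quasi-likelihood test, Benjamini-Hochberg adjustment over all 14817 genes tested), and the adjusted p-values ran from 0.681 to 0.927. The same threshold called 0.00675% of all genes, a single gene, Slc2a1. Log2 fold changes were positive for 46 of 48 members, against 52.4% of all genes, with a median of 0.33 against 0.02 over all genes and a median SE of 0.18. Every log2 fold change below is given ± its SE. At an unadjusted p under 0.05, 10 members were higher in Glut1Tg, 20.8% of those tested against 4.5% of all genes, and 0 were lower, against 1.5% of all genes. The 10 were Psma7, Psmb4, Psmb5, Psmb6, Psmb8, Psmb9, Psmd3, Psmd7, Psme2 and Psmg3. DESeq2 also called 0 members, and placed 8 of them higher at the unadjusted threshold, against 2.75% of the 26416 genes it was run on. Those genes include low-count genes that the filter removed, so this share cannot be set against the 4.5% above. In 2 members, Psmb4 and Psmd4, all Glut1Tg libraries were above all WT libraries, against 1.01% of all genes, and 0 members lay wholly below, against 0.58%. Members move together across libraries, so they are not 48 independent observations.

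The size of the positive values depended on the libraries used. Glut1Tg replicates 1 and 3 and WT replicate 2, which stand apart in proliferation genes or in genes of other cell types, were left out together in a setting chosen after seeing the data. The median log2 fold change was then 0.034 and 30 of 48 values were positive. At an unadjusted p under 0.05, 2 members were higher, against 1.71% of all genes. By role the medians were then between -0.055 and 0.10, except for the immunoproteasome catalytic genes at 0.30. Leaving out Glut1Tg replicate 1 alone also left 2 members in place of 10, while the share of all genes fell from 4.5% to 0.985%. The count was 14, 6 and 13 without Glut1Tg replicates 2, 3 and 4, beside 6, 2.28 and 5.79% of all genes. Without WT replicates 1 to 5 it was 4, 14, 4, 6 and 5, beside 1.77, 5.95, 2.82, 2.9 and 2.18%. With any 1 library left out, 44 to 46 of the 48 values stayed positive. Within mouse group 1 the median was 0.23 and 0 members reached an unadjusted p of 0.05, while 1.07% of all genes were higher at it. Within mouse group 2, which has 1 Glut1Tg library, the median was 0.47.

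**Figure D2:**
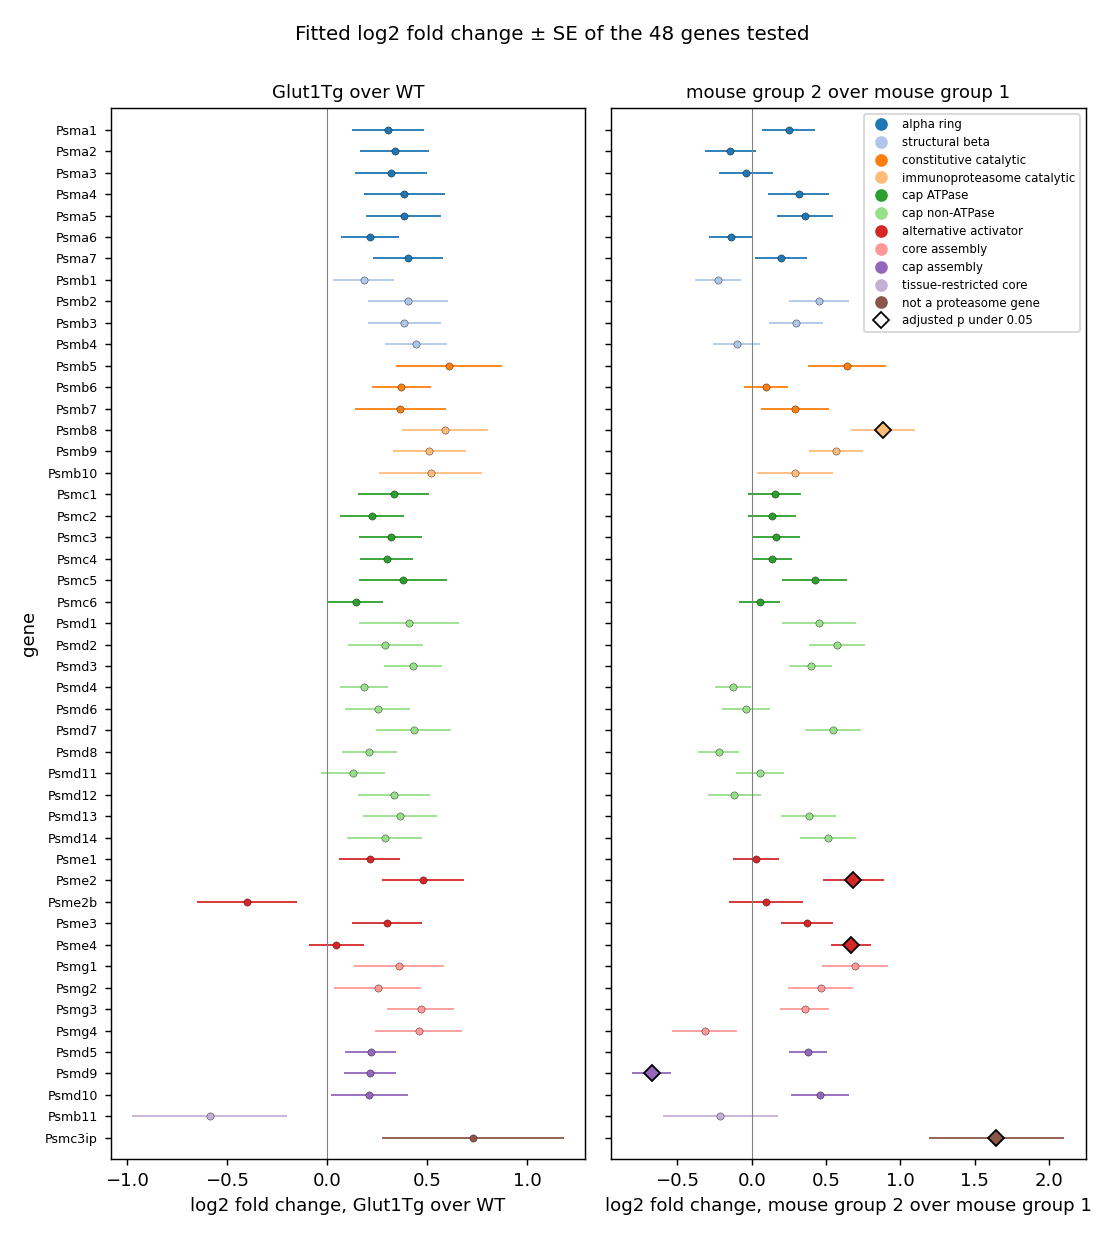
Log2 fold change ± SE (bars) of the 48 genes tested, coloured by role, for Glut1Tg over WT on the left and mouse group 2 over mouse group 1 on the right; diamonds mark an adjusted p under 0.05. On the left 46 of 48 points lie right of 0 with no diamond, and on the right 5 diamonds stand out: Psmb8, Psme2, Psme4 and Psmc3ip above 0 and Psmd9 below 0.

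The alpha ring genes form the outer gate of the core. All 7 had positive log2 fold changes, from 0.21 to 0.40. Psma7, with the smallest p among them, stood at 166, 115, 178 and 114 CPM in Glut1Tg replicates 1 to 4, against 105, 139, 109, 113 and 100.3 CPM in WT replicates 1 to 5. Glut1Tg replicates 1 and 3 were above all WT libraries, while Glut1Tg replicates 2 and 4 lay among them, and the log2 fold change was 0.40 ± 0.18. Psma2, the alpha gene with the most counts, stood at 269, 239.7, 366 and 244 CPM in Glut1Tg replicates 1 to 4, against 236, 244, 227, 187 and 178 CPM in WT replicates 1 to 5. Glut1Tg replicate 3 was well above the rest, the other libraries overlapped, and the log2 fold change was 0.34 ± 0.17.

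Structural beta genes complete the inner rings without a proteolytic site of their own. All 4 were positive, from 0.18 to 0.44. Psmb4 was the clearest, at 254, 229.6, 321 and 225 CPM in Glut1Tg replicates 1 to 4, against 200.4, 208, 193, 169 and 156 CPM in WT replicates 1 to 5. Every Glut1Tg library was above every WT library, the means were 257 ± 44.5 CPM in Glut1Tg and 185 ± 22.0 CPM in WT (SD, n = 4 and 5), and the log2 fold change was 0.44 ± 0.16 (adjusted p = 0.681). Psmb1, the role's most counted gene, stood at 217, 251, 348 and 251 CPM in Glut1Tg replicates 1 to 4, against 248, 216, 219.5, 233 and 191 CPM in WT replicates 1 to 5. The genotypes overlapped, and its log2 fold change of 0.18 ± 0.15 was close to its SE.

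The catalytic beta subunits come in pairs: Psmb5, Psmb6 and Psmb7 hold the chymotrypsin-like, caspase-like and trypsin-like activities of the constitutive core, and Psmb8, Psmb9 and Psmb10 replace them in the immunoproteasome. Psmb5 stood at 130.3, 56.5, 111 and 49.3 CPM in Glut1Tg replicates 1 to 4, against 51.1, 94.2, 53.2, 71.1 and 57.0 CPM in WT replicates 1 to 5. Glut1Tg replicates 1 and 3 were the highest of all libraries and Glut1Tg replicate 4 the lowest, so the groups overlapped fully, and the log2 fold change was 0.61 ± 0.26. Psmb6 varied less, at 148, 117, 160.1 and 111 CPM in Glut1Tg replicates 1 to 4, against 105, 118, 104, 107 and 95.4 CPM in WT replicates 1 to 5. Only WT replicate 2 lay above any Glut1Tg library, and the log2 fold change was 0.37 ± 0.15. Psmb7 stood at 140.5, 84.5, 99.4 and 76.1 CPM in Glut1Tg replicates 1 to 4, against 86.1, 118, 76.0, 66.4 and 63.1 CPM in WT replicates 1 to 5. Its high libraries were Glut1Tg replicate 1 and WT replicate 2, and its log2 fold change of 0.36 ± 0.23 did not reach an unadjusted p of 0.05. Psmb7 shares 405 exon bases with Nek6 on the opposite strand, and the sources used here do not say whether counting used strand.

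Immunoproteasome catalytic genes had the highest median log2 fold change of any role with more than 1 tested gene, 0.52 over 3 genes. That order belongs to the fit with mouse group as a term. By summed CPM without that term, Glut1Tg over WT was 1.23 for this role, against 1.27 for constitutive catalytic and 1.26 for structural beta genes. From the lowest to the highest library Psmb8 ranged 2.90-fold, Psmb10 2.75-fold and Psmb9 2.18-fold, beside 2.64-fold for Psmb5, 2.23-fold for Psmb7 and 1.68-fold for Psmb6. Psmb8 stood at 529, 209.8, 398 and 251 CPM in Glut1Tg replicates 1 to 4, against 183, 435, 198, 329 and 289 CPM in WT replicates 1 to 5. Glut1Tg replicates 1 and 3 and WT replicate 2 were the high ones, the genotypes overlapped, and the log2 fold change was 0.59 ± 0.21. Psmb9 stood at 223, 125, 218 and 144 CPM in Glut1Tg replicates 1 to 4, against 102, 186, 116, 168 and 153 CPM in WT replicates 1 to 5. The same libraries were high, and its log2 fold change was 0.51 ± 0.18. Psmb9 lies head to head with the peptide transporter gene Tap1 and shares 212 exon bases with it on the opposite strand, so reads of the pair may be mixed. In all, 13 members share exon bases with another gene, among them Psmb8 with Gm20496 (498 bases) and Psmc3ip with Mlx (385 bases). Psmb10 stood at 114, 89.7, 185 and 104 CPM in Glut1Tg replicates 1 to 4, against 67.3, 101, 80.2, 120.0 and 103 CPM in WT replicates 1 to 5. Glut1Tg replicate 3 alone was high, the other 8 libraries overlapped, and the log2 fold change was 0.52 ± 0.26. Glut1Tg replicate 3 is the library high in mast cell, macrophage and erythroid genes, whose part in this value was not tested. In mouse group 1 alone, also a setting chosen after seeing the data, the median of the 3 genes was 0.58. The genotype value in mouse group 2 relative to that in mouse group 1 was 0.003 for Psmb8, -0.18 for Psmb9 and -0.70 for Psmb10 (log2). Mouse group 2 has 1 Glut1Tg library.

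**Figure D3:**
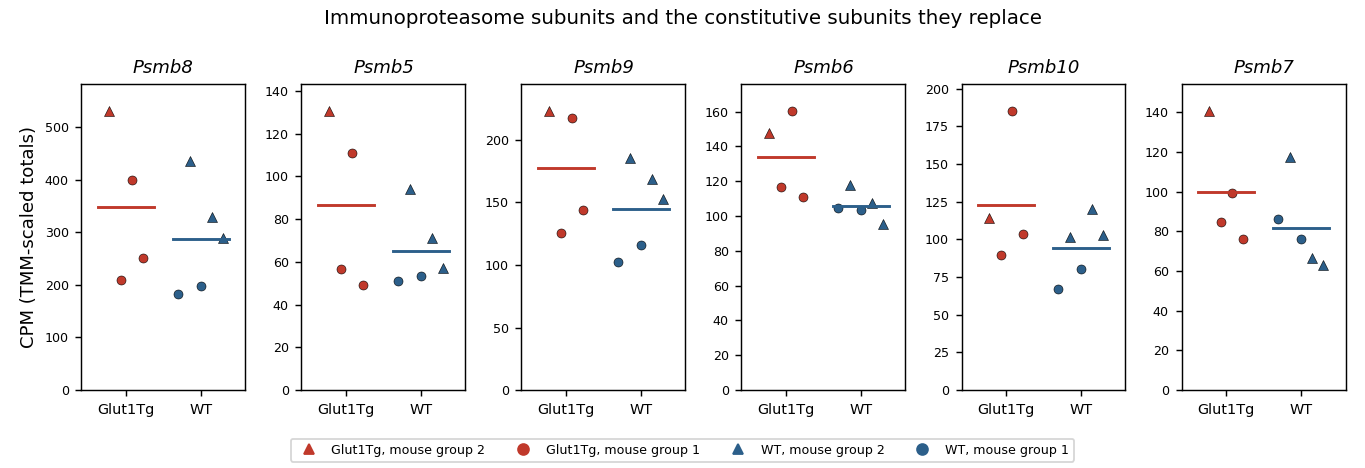
CPM of the 3 immunoproteasome catalytic genes, each left of the constitutive gene whose product it replaces, in 4 Glut1Tg and 5 WT libraries; triangles are mouse group 2, circles mouse group 1, lines the genotype means. Glut1Tg and WT overlap in all 6 genes. In WT the mouse group 2 libraries lie above the mouse group 1 libraries for Psmb8, Psmb9 and Psmb10, and the share of all genes that do so was not counted.

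Set against the constitutive subunits, the immunoproteasome share overlapped between genotypes. Per length of the principal transcript, the share of immunoproteasome genes in the summed catalytic transcripts was 56.1, 50.7, 57.2 and 56.7% in Glut1Tg replicates 1 to 4, against 47.7, 57.7, 51.3, 60.7 and 60.9% in WT replicates 1 to 5. The means were 55.2% ± 3.02 in Glut1Tg and 55.6% ± 5.90 in WT (SD, n = 4 and 5). Within mouse group 1 the mean share was 54.9% in Glut1Tg and 49.5% in WT, and within mouse group 2 it was 56.1% in the single Glut1Tg library and 59.7% in WT, so the direction differed between mouse groups, a difference that was not tested. The ratio of Psmb8 to Psmb5 per length was 2.24, 2.05, 1.98 and 2.82 in Glut1Tg replicates 1 to 4, against 1.98, 2.55, 2.06, 2.56 and 2.80 in WT replicates 1 to 5. The lowest 4 ratios and the highest, that of Glut1Tg replicate 4, all came from mouse group 1. Per length of all exons the ratio was lower, from 0.951 to 1.36 over the 9 libraries. Psmb9 to Psmb6 stood at 0.773 ± 0.107 in Glut1Tg and 0.807 ± 0.177 in WT, and Psmb10 to Psmb7 at 1.13 ± 0.399 in Glut1Tg and 1.09 ± 0.411 in WT (SD, n = 4 and 5). Psmb10 exceeded Psmb7 in Glut1Tg replicates 3 and 4 and WT replicates 4 and 5, and was lower in the other 5 libraries. Per length of all exons of each gene, a setting chosen after seeing the data, the ratio was above 1 in all 9 libraries (1.57 to 3.73), so which gene is higher depends on the length used.

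In the cap, the 6 ATPase genes, whose products form the ring that unfolds substrates, had log2 fold changes from 0.14 to 0.38. Psmc4, with the smallest p among them, stood at 169.5, 132, 156 and 128 CPM in Glut1Tg replicates 1 to 4, against 118, 145, 124, 115 and 112 CPM in WT replicates 1 to 5. The genotypes overlapped through WT replicate 2, and the log2 fold change was 0.30 ± 0.13. Psmc3, the most counted, stood at 251, 181, 249.9 and 180.3 CPM in Glut1Tg replicates 1 to 4, against 175, 219, 173, 169 and 163 CPM in WT replicates 1 to 5. Again Glut1Tg replicates 1 and 3 were highest and WT replicate 2 came next, with a log2 fold change of 0.32 ± 0.16. The 11 non-ATPase genes were all positive, from 0.13 to 0.43. Psmd3, a scaffold subunit of the lid, stood at 245, 147, 167 and 139.6 CPM in Glut1Tg replicates 1 to 4, against 123, 172, 135, 139 and 133 CPM in WT replicates 1 to 5. Its log2 fold change of 0.43 ± 0.15 had the smallest p of all members by edgeR (adjusted p = 0.681), and 3 of the 4 Glut1Tg libraries lay below WT replicate 2. Psmd4, a ubiquitin receptor, stood at 149.9, 166, 203 and 155 CPM in Glut1Tg replicates 1 to 4, against 148, 137, 147, 147 and 139.7 CPM in WT replicates 1 to 5. Its genotypes did not overlap, but the lowest Glut1Tg library was only just above the highest WT library, and the log2 fold change was 0.18 ± 0.12. Psmd8, the most counted cap gene, stood at 268, 243, 295 and 273 CPM in Glut1Tg replicates 1 to 4, against 262, 234, 252, 184 and 182 CPM in WT replicates 1 to 5. WT replicates 4 and 5, of mouse group 2, were its low libraries, and its log2 fold change was 0.21 ± 0.14.

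Alternative activators bind the ends of the core in place of the cap. Psme1 and Psme2 encode the interferon-inducible PA28 alpha and beta subunits, which assemble together, Psme3 encodes nuclear PA28 gamma, and Psme4 encodes PA200. Psme1 stood at 413, 389.8, 521 and 342 CPM in Glut1Tg replicates 1 to 4, against 348, 391, 359, 381 and 331 CPM in WT replicates 1 to 5. It was high in Glut1Tg replicate 3, and its log2 fold change was 0.21 ± 0.15. Psme2 stood at 417, 178, 311 and 203 CPM in Glut1Tg replicates 1 to 4, against 181, 338, 176, 238 and 222 CPM in WT replicates 1 to 5. Glut1Tg replicates 1 and 3 and WT replicate 2 were high, and the log2 fold change was 0.48 ± 0.21. The partners were therefore not in a fixed ratio: Psme1 over Psme2 per length was 0.857, 1.89, 1.45 and 1.45 in Glut1Tg replicates 1 to 4, against 1.66, 0.999, 1.77, 1.38 and 1.29 in WT replicates 1 to 5. The ratio was at or below 1 in Glut1Tg replicate 1 and WT replicate 2 and from 1.29 to 1.89 in the other libraries. Psme3 stood at 239, 132, 158 and 133 CPM in Glut1Tg replicates 1 to 4, against 141, 185, 133, 133 and 128 CPM in WT replicates 1 to 5. Glut1Tg replicate 1 and WT replicate 2 were high, and the log2 fold change was 0.30 ± 0.17. Psme4 stood at 123, 65.7, 68.9 and 67.3 CPM in Glut1Tg replicates 1 to 4, against 72.6, 125, 70.1, 94.3 and 91.8 CPM in WT replicates 1 to 5. Again Glut1Tg replicate 1 and WT replicate 2 were high, and the genotype difference was a log2 value of 0.04 ± 0.14, the smallest in size of all members. Psme2b, an intronless copy of Psme2 whose reads cannot be securely separated from its parent gene, stood at 14.1, 15.8, 8.07 and 17.1 CPM in Glut1Tg replicates 1 to 4, against 17.2, 16.8, 18.2, 16.9 and 24.2 CPM in WT replicates 1 to 5. Glut1Tg replicate 3 was low and WT replicate 5 high, and the log2 fold change was -0.40 ± 0.25, 1 of only 2 negative values among the members.

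Assembly factors escort the subunits into place and leave the finished particle. All 4 core assembly genes were positive, from 0.25 to 0.47. Psmg3 stood at 23.1, 15.6, 17.8 and 14.8 CPM in Glut1Tg replicates 1 to 4, against 12.4, 16.3, 12.7, 16.7 and 11.7 CPM in WT replicates 1 to 5. WT replicates 2 and 4 were above 2 of the Glut1Tg libraries, and the log2 fold change was 0.47 ± 0.17. Psmg2, the most counted of them over all libraries, stood at 33.2, 16.7, 25.2 and 16.0 CPM in Glut1Tg replicates 1 to 4, against 19.0, 29.0, 18.5, 20.7 and 17.5 CPM in WT replicates 1 to 5. Glut1Tg replicate 1 and WT replicate 2 were high, and the log2 fold change of 0.25 ± 0.22 was close to its SE. The 3 cap assembly genes lay between 0.21 and 0.22. Psmd5, a chaperone of the ATPase ring, stood at 64.7, 44.3, 51.7 and 43.2 CPM in Glut1Tg replicates 1 to 4, against 44.1, 58.9, 39.3, 49.8 and 46.9 CPM in WT replicates 1 to 5. Glut1Tg replicate 1 and WT replicate 2 were its high libraries, with a log2 fold change of 0.22 ± 0.13. The thymic subunit gene Psmb11 was near the floor, at 0.946, 0.846, 0.959 and 0.737 CPM in Glut1Tg replicates 1 to 4, against 1.29, 0.811, 1.70, 0.627 and 1.87 CPM in WT replicates 1 to 5. The genotypes overlapped, and the log2 fold change of -0.59 ± 0.39 rests on few counts.

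Levels between genes can be compared per length, as CPM per kb of the principal transcript. Psme1 was highest, with 374 ± 68.1 CPM per kb in Glut1Tg and 326 ± 21.8 CPM per kb in WT, then Psme2, with 288 ± 114 CPM per kb in Glut1Tg and 240.3 ± 68.1 CPM per kb in WT, and Psmb8, with 213 ± 89.6 CPM per kb in Glut1Tg and 176 ± 63.2 CPM per kb in WT (SD, n = 4 and 5). These 3 overlapped their neighbours in this order within 1 SD in both genotypes. Averaged over the 9 libraries, alpha ring genes held 47.7 to 138.5 CPM per kb, structural beta genes 118 to 184, constitutive catalytic genes 77.5 to 148, immunoproteasome catalytic genes 81.8 to 193, cap ATPase genes 44.6 to 119.6 and cap non-ATPase genes 33.6 to 158. Assembly factors were lower, at 15.6 to 35.1 CPM per kb for the core and 11.2 to 14.6 for the cap. Psme4 held 12.5 ± 4.29 CPM per kb in Glut1Tg and 14.0 ± 3.39 CPM per kb in WT, at the level of the assembly factors. The ranges of core and cap subunits overlapped each other, and the highest assembly gene, Psmg4, was above the lowest cap gene, Psmd11. Per length of all exons Psmg4 was also above the core genes Psma3 and Psmb7. It was then above the cap genes Psmc2, Psmc6, Psmd1, Psmd3, Psmd6, Psmd13 and Psmd14 as well. By that length Psmb8 came after Psma6 and Psmb4 in the order.

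**Figure D4:**
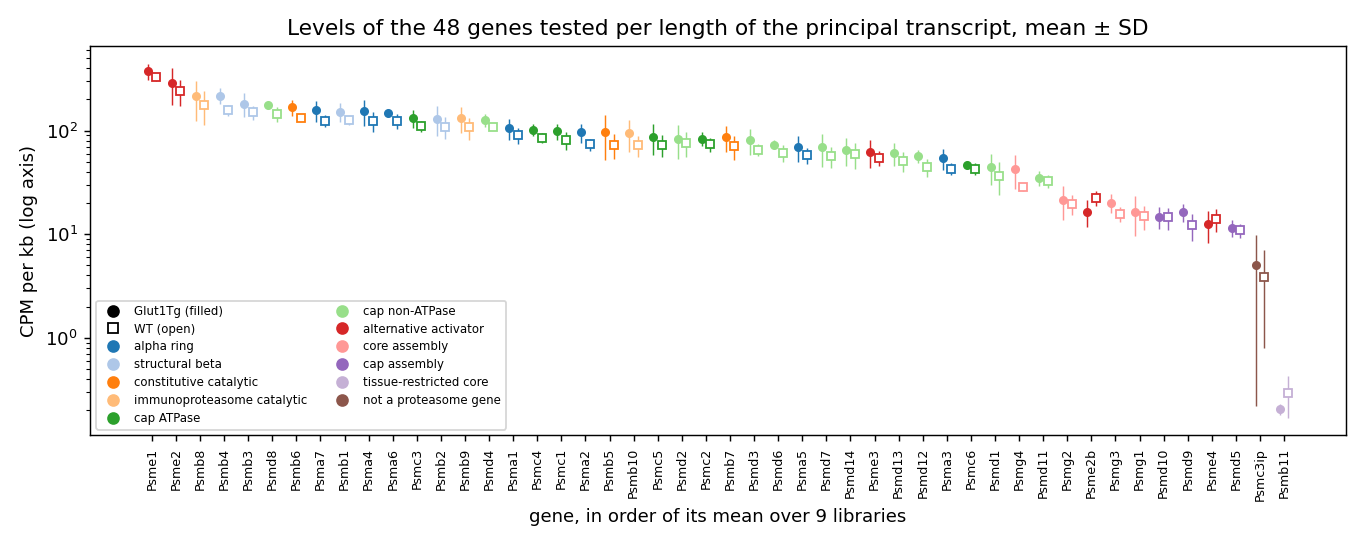
CPM per kb of the principal transcript on a log axis, mean ± SD (bars), for 48 genes in order of their mean over 9 libraries; filled circles are Glut1Tg (n = 4), open squares WT (n = 5), and colours are roles. Psme1, Psme2 and Psmb8 lead by this length, core and cap subunits other than Psmb11 have means of 33.6 to 193 CPM per kb, and assembly factors and Psme4 have means of at most 35.1.

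The second comparison set mouse group 2 against mouse group 1, with genotype held as a term. By the same test 4 of 48 members passed as higher in mouse group 2, while 13.1% of all genes did, and 1 of 48 passed as lower, while 11% of all genes did. Without Psmc3ip, which is not a proteasome gene, 3 of 47 passed as higher. At an unadjusted p under 0.05, 14 members were higher, 29.2% of those tested against 21% of all genes. Log2 fold changes were positive for 36 of 48 members, against 49.2% of all genes, with a median of 0.29 against -0.01 over all genes. The count of 4 became 0, 2, 13 and 2 without Glut1Tg replicates 1 to 4, beside 1.44, 8.67, 16.7 and 8.15% of all genes. Without WT replicates 1 to 5 it became 2, 2, 1, 5 and 8, beside 7.13, 7.38, 6.9, 15.7 and 12.8%. Both libraries high in proliferation genes, Glut1Tg replicate 1 and WT replicate 2, belong to mouse group 2. Without both, the median was 0.019 and 0 members passed as higher, beside 1.38% of all genes. The median of the 3 immunoproteasome catalytic genes was then 0.61, against 0.57 with all libraries. Values below run from Glut1Tg replicate 1 to WT replicates 2, 4 and 5 in mouse group 2, and from Glut1Tg replicates 2, 3 and 4 to WT replicates 1 and 3 in mouse group 1. Psme4, Psmd9, Zfand2a, Nfe2l1 and Nfe2l2 are described below as not overlapping between mouse groups. The share of all genes that separate in this way was not counted.

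Psmb8 (ENSMUSG00000024338, chr17:34197721-34201454 of GRCm38, plus strand) rose in mouse group 2. It stood at 529, 435, 329 and 289 CPM in mouse group 2, against 209.8, 398, 251, 183 and 198 CPM in mouse group 1. All mouse group 2 libraries exceeded all those of mouse group 1 except Glut1Tg replicate 3, and the log2 fold change was 0.88 ± 0.21 (adjusted p = 0.0194). Psmb9 had a log2 fold change of 0.57 ± 0.18 and missed the threshold (adjusted p = 0.0504), but passed with another scaling, with DESeq2, without a filter on low counts and without Glut1Tg replicate 3. Psmb10 had a log2 fold change of 0.29 ± 0.26, which ran from 0.13 to 0.55 with 1 library left out and passed without Glut1Tg replicate 3 (0.46, adjusted p = 0.0302). In the WT libraries alone, those of mouse group 2 were above those of mouse group 1 in all 3 genes. The share of all genes that separate in this way was not counted, and these genes move together.

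Psme2 (ENSMUSG00000079197, chr14:55587441-55591113, minus strand) rose as well, at 417, 338, 238 and 222 CPM in mouse group 2, against 178, 311, 203, 181 and 176 CPM in mouse group 1. The log2 fold change was 0.69 ± 0.21 (adjusted p = 0.0398), while its partner Psme1 had a log2 fold change of 0.03 ± 0.15. Psme4 (ENSMUSG00000040850, chr11:30771726-30880361, plus strand) rose, at 123, 125, 94.3 and 91.8 CPM in mouse group 2, against 65.7, 68.9, 67.3, 72.6 and 70.1 CPM in mouse group 1. The mouse groups did not overlap, with a log2 fold change of 0.67 ± 0.14 (adjusted p = 0.0101). Psmc3ip, the recombination factor (ENSMUSG00000019303, chr11:101091823-101095436, minus strand), rose, at 15.6, 12.1, 3.80 and 3.92 CPM in mouse group 2, against 2.04, 5.27, 3.08, 3.32 and 2.07 CPM in mouse group 1. Its high values were those of Glut1Tg replicate 1 and WT replicate 2, and the log2 fold change was 1.65 ± 0.46 (adjusted p = 0.0301). None of these 4 calls held without Glut1Tg replicate 1, where the log2 fold changes were 0.88 for Psmb8, 0.57 for Psme2, 0.53 for Psme4 and 1.27 for Psmc3ip, with adjusted p-values of 0.113, 0.242, 0.112 and 0.266. Leaving out other single libraries also ended some of them: WT replicate 1 or 3 for Psmb8, Glut1Tg replicate 2 or 4 or WT replicate 1, 2 or 3 for Psme2, and Glut1Tg replicate 2 or 4 or WT replicate 2 or 3 for Psmc3ip.

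Psmd9, a chaperone of cap assembly (ENSMUSG00000029440, chr5:123169413-123250131, plus strand), fell in mouse group 2. It stood at 30.9, 28.8, 25.2 and 21.9 CPM in mouse group 2, against 47.1, 50.5, 42.9, 42.0 and 41.3 CPM in mouse group 1. The mouse groups did not overlap, in either genotype, with a log2 fold change of -0.67 ± 0.13 (adjusted p = 0.00823). This call held in all 13 alternatives run for the mouse groups, with adjusted p-values up to 0.0496 and a log2 fold change of -0.81 without Glut1Tg replicate 1 and WT replicate 2. The other cap assembly genes had positive values in the same comparison, 0.38 ± 0.13 for Psmd5 and 0.46 ± 0.19 for Psmd10, and neither passed.

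**Figure D5:**
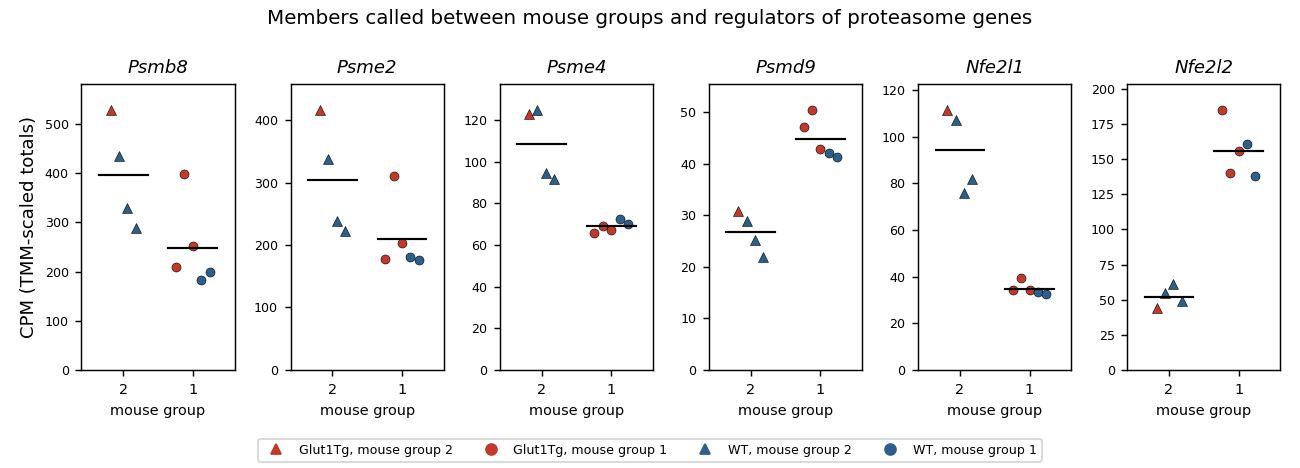
CPM in mouse group 2 (triangles, n = 4) and mouse group 1 (circles, n = 5) for Psmb8, Psme2, Psme4 and Psmd9, which passed the test, and for the transcription factor genes Nfe2l1 and Nfe2l2; red is Glut1Tg, blue WT, and lines are group means. Nfe2l1 and Psme4 are higher and Nfe2l2 and Psmd9 lower in every mouse group 2 library than in any mouse group 1 library, while Psmb8 and Psme2 overlap through Glut1Tg replicate 3. The share of all genes that separate without overlap was not counted.

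The test of whether the genotype difference itself differed between mouse groups called 0 members and 0% of all genes. It found 0 members at an unadjusted p under 0.05, against 5.3% of all genes, and DESeq2 also called 0 members. Log2 interaction values ran from -0.70 to 0.88 with a median SE of 0.38, and mouse group 2 has a single Glut1Tg library.

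Other genes of the pathway were taken from a list of 61, all of which passed the filter on low counts. Between genotypes 0 of them passed the test. At the unadjusted threshold 3 were higher, beside 4.5% of all genes, and 0 were lower, beside 1.5%. Log2 fold changes were positive for 41, beside 52.4% of all genes, with a median of 0.12. Between mouse groups 9 of 61 passed as higher and 13 as lower, beside 13.1% and 11% of all genes. Of 14 subunits, regulators and assembly factors with other symbols, 2 passed as higher and 4 as lower in mouse group 2. Zfand2a, which encodes a stress-induced partner of the cap, fell, at 26.6, 28.2, 29.5 and 27.7 CPM in mouse group 2, against 77.8, 58.3, 75.8, 78.5 and 77.4 CPM in mouse group 1. The mouse groups did not overlap, with a log2 fold change of -1.44 ± 0.13 (adjusted p = 0.0012). Psmf1, the gene of the inhibitor PI31, fell, with a log2 fold change of -0.74 ± 0.11 (adjusted p = 0.00351), and Akirin2, whose product brings proteasomes into the nucleus, fell with one of -0.54 ± 0.12 (adjusted p = 0.0118). Adrm1, a ubiquitin receptor of the cap singled out after its values were seen, stood at 129, 108, 137 and 107 CPM in Glut1Tg replicates 1 to 4, against 80.7, 88.8, 95.6, 100.5 and 106 CPM in WT replicates 1 to 5. All Glut1Tg libraries were above all WT libraries, and the log2 fold change was 0.40 ± 0.13 (adjusted p = 0.681). The listed genes Tap1 and Tapbp separated in the same direction. Irf2 separated in the other, at 48.3 to 80.5 CPM in Glut1Tg against 81.7 to 131.3 CPM in WT. Of all genes, 1.01% lay wholly above and 0.58% wholly below.

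Transcription factors of proteasome genes changed in opposite directions between mouse groups. Nfe2l1 encodes Nrf1, which is itself held down by the proteasome and raises transcription of its subunits when proteasome activity is low. It rose in mouse group 2, at 112, 107, 75.8 and 81.8 CPM in mouse group 2, against 34.3, 39.5, 34.5, 33.5 and 32.6 CPM in mouse group 1. No mouse group 1 library reached the lowest of mouse group 2, and the log2 fold change was 1.50 ± 0.14 (adjusted p = 0.0012). Nfe2l2 encodes the related Nrf2, the regulator of antioxidant genes, and fell, at 44.1, 54.5, 61.2 and 49.3 CPM in mouse group 2, against 185, 140.0, 156, 161 and 138 CPM in mouse group 1. Every mouse group 2 library was below every mouse group 1 library, and the log2 fold change was -1.60 ± 0.16 (adjusted p = 0.00129). Their small Maf partner gene Mafg fell, with a log2 fold change of -0.88 ± 0.14 (adjusted p = 0.00469). Between genotypes the log2 fold changes were 0.21 ± 0.14 for Nfe2l1 and -0.05 ± 0.15 for Nfe2l2, and neither passed. Of all 10 genes in this group, 1 passed as higher and 4 as lower between mouse groups, beside 13.1% and 11% of all genes. Of the members with the antioxidant core, Psme4 passed as higher and Psmd9 as lower in mouse group 2. Psmb5 (0.64 ± 0.26), Psmb6 (0.10 ± 0.15), Psmc6 (0.05 ± 0.14) and Psmd12 (-0.12 ± 0.18) did not pass. Any part of these factors in the members' levels was not tested.

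Among 12 interferon regulators of the immunoproteasome, 3 passed as higher and 2 as lower in mouse group 2, beside 13.1% and 11% of all genes. Of the 4 listed genes of the receptor side 2 fell: Jak2 had a log2 fold change of -0.74 ± 0.15 (adjusted p = 0.0108) and Ifngr2 one of -0.84 ± 0.14 (adjusted p = 0.00562). Ifngr1 (-0.55 ± 0.29, adjusted p = 0.194) and Jak1 (-0.46 ± 0.26, adjusted p = 0.214) did not pass. Of 15 genes of ubiquitin supply and shuttling, 3 passed as higher and 2 as lower, beside the same shares of all genes. Among the higher was the shuttle gene Ubqln4 (0.60 ± 0.16, adjusted p = 0.0244). Among the lower was the polyubiquitin gene Ubb (-0.65 ± 0.15, adjusted p = 0.0166), all as log2 fold changes. Of 10 peptide loading genes, 0 passed as higher and 1 as lower, beside the same shares. The 1 was the MHC class I gene H2-D1 (-0.62 ± 0.16, adjusted p = 0.0227). Tap1, the neighbour of Psmb9, stood at 491, 447, 634 and 452 CPM in Glut1Tg replicates 1 to 4, against 350.1, 407, 400.2, 405 and 412 CPM in WT replicates 1 to 5. Every Glut1Tg library was above every WT library, as in 1.01% of all genes. The log2 fold change between genotypes was 0.38 ± 0.15 (adjusted p = 0.681) and between mouse groups 0.05 ± 0.15. Calls that ended without Glut1Tg replicate 1 were those of Akirin2, Jak2, Ifngr2, Ubqln4, Ubb and H2-D1, with adjusted p-values of 0.0863, 0.113, 0.0575, 0.268, 0.13 and 0.203.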

How the data were processed

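Stranded mRNA libraries were sequenced as 75 bp paired-end reads, per the labels' protocols. The authors deposited 1 table of raw read counts per gene; the submitters' processing notes name bcl2fastq, TopHat2, featureCounts, DESeq2 and mm10, with no versions, and the sources used here do not state the strand setting of counting. The counts were taken as deposited. Library totals ran from 20881035 to 31196428.

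Genes with low counts were removed with filterByExpr by genotype, which left 14817 genes. Counts were tested with edgeR 4.0.16 (R 4.3.3) by the quasi-likelihood test, with TMM scaling and a model of mouse group and genotype over all 9 libraries, and a second model added their interaction. SE is the log2 fold change divided by the square root of F. P-values were adjusted by Benjamini-Hochberg over all genes at a threshold of 0.05. Genes and transcript lengths came from GENCODE vM21, promoter windows from RefSeq. Alternatives were DESeq2 1.42.0, RLE scaling, no filter, other terms and left-out libraries.

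The members and lists were chosen with earlier results of these data known. Values in every library are given for the catalytic subunits, the activators, each member that passed a test, and in each role the member with the smallest genotype p and the one with the highest mean CPM. Up to 3 genes are named per pathway list, those past the test, and Tap1, and some genes under that rule are not reported here; Psmd4 and Adrm1 were added after their values were seen. Psma8 and 2 genes of the same symbol pattern that are not protein-coding were left out of the tests described.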

Additional observations from a re-analysis of the deposited data

Results flagged for a closer look

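Within a genotype, 9 of 86 groups of values examined held a library far from the others by Dixon's test, where chance gives about 1 in 20 for a single group. The groups share libraries, and sums and ratios reuse the same genes. Each genotype also mixes mouse groups. The 86 are therefore not independent, and 9 of 86 cannot be set against 1 in 20.

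WT replicate 2 was the far library in 6 of them. It held 218.9 CPM of Psmc3, against 163 to 175 CPM in the other WT libraries. It held 12.05 CPM of Psmc3ip, against 2.07 to 3.92 CPM. It held 185.2 CPM of Psme3, against 128 to 141 CPM. It held 28.97 CPM of Psmg2, against 17.5 to 20.7 CPM. Summed over the 47 genes without Psmc3ip it held 6802 CPM, against 4884 to 5304 CPM. Summed over the constitutive catalytic genes it held 329.4 CPM, against 215 to 245 CPM.

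WT replicate 5 held 24.19 CPM of Psme2b, against 16.8 to 18.2 CPM in the other WT libraries. Glut1Tg replicate 1, the only Glut1Tg library of mouse group 2, held 123.0 CPM of Psme4, against 65.7 to 68.9 CPM in the other Glut1Tg libraries. Glut1Tg replicate 2 had an immunoproteasome share of 50.69% of catalytic transcripts per length, against 56.1% to 57.2% in the other Glut1Tg libraries.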

How the results depend on the processing

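No member passed the genotype test of edgeR or DESeq2 under any alternative run. At an unadjusted p under 0.05, 10 members were higher, beside 4.5% of all genes. The 10 became 3 with no mouse group term (2.31% of all genes) and 0 in mouse group 1 alone (1.07%). Without Glut1Tg replicate 1 and WT replicate 2 they became 2 (1.54%). Without Glut1Tg replicates 1 and 3 they became 1 (0.68%), and without those and WT replicate 2 they became 2 (1.71%). With 1 library left out they became 2 to 14 (0.985% to 6%). The median log2 fold change of 0.33 became 0.047 without Glut1Tg replicates 1 and 3 and 0.034 without those and WT replicate 2, and ran from 0.20 to 0.39 with 1 library left out. Of 25 named members, 18 kept the sign of their genotype value in every alternative. The replicate block in place of mouse group gave 0 members at an unadjusted p under 0.05 and a median of 0.21. Of all genes, 0.236% were then higher at that threshold. Whether the replicate numbers pair the libraries could not be decided. Correlations of same-numbered deviations from the genotype means were -0.51, -0.60, 0.22 and -0.22. No Glut1Tg library correlated best with its own number (0 of 4). Mouse group was not removed from the deviations, and only number 3 has both libraries in 1 mouse group. Between mouse groups, the 4 members called higher became 7 with RLE scaling, beside 13.5% of all genes called higher. They became 9 with DESeq2 (9.46%) and 7 with no filter (7.53%). Both of these shares are over 26416 genes, among them low-count genes that the main filter removed. They therefore cannot be set against the 13.1% of 14817 genes in the main fit, and enrichment of members cannot be read from them. The 4 became 0 without Glut1Tg replicate 1 and WT replicate 2 (1.38%), and 0 to 13 with 1 library left out (1.44% to 16.7%). The 14 at an unadjusted p under 0.05 became 2 without that pair and 4 to 21 with 1 left out. The median of 0.29 became 0.019 without that pair. The settings that left out Glut1Tg replicate 3 together with other libraries, and those within 1 mouse group, were chosen after seeing the data. The immunoproteasome share per length of all exons was 53.1% in Glut1Tg and 53.5% in WT. With a single Glut1Tg library in mouse group 2, genotype values within it assume that library varies like the others. The cause of these shifts was not tested.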
